A study of Homo sapiens with 4 samples.

Results

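The ABC transporter family was taken as the protein-coding genes whose symbol is ABC followed by a subfamily letter from A to G and a number. The deposited table held 45 such genes among 58735 gene identifiers. Of these 45, 32 were abundant enough to be tested, among 16250 genes tested in all. The family's members TAP1, TAP2 and CFTR carry other symbols and were described separately. RNA had been sequenced from A549 cells, a human lung adenocarcinoma line labelled wild-type, that were stained with an antibody to the adhesion molecule ICAM1 and sorted by flow cytometry. Cells of both subsets had been kept in DMEM with serum and antibiotics. There were 2 libraries of the ICAM1-high subset and 2 of the ICAM1-low subset. No treatment other than staining and sorting is given for either subset, and separate cultures for the libraries of a subset are not stated. P-values therefore rest on library-to-library spread alone, and that spread may be technical.

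ABC proteins bind and hydrolyse ATP, and most use that energy to move a substrate across a membrane. Members of the ABCC subfamily, ABCB1 and ABCG2 pump drugs and drug conjugates out of cells and are known for their part in resistance to chemotherapy. Members of the ABCA subfamily and several ABCG proteins move sterols and phospholipids. Others work inside the cell, in mitochondria, peroxisomes and lysosomes, and the ABCE and ABCF proteins have no membrane segment and act in translation.

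Library totals were 17638647 and 17271825 counts in ICAM1-high cells, against 16665362 and 16272591 counts in ICAM1-low cells. The sorting marker ICAM1 was at 113 ± 3.60 CPM in ICAM1-high cells, against 4.75 ± 0.202 CPM in ICAM1-low cells, where CPM is TMM-scaled counts per 1000000 and errors are the SD of 2 libraries. Both ICAM1-high libraries went against the cell line label in 3 genes. The A549 genome is known to carry a deletion that takes out CDKN2A, CDKN2B and MTAP, and these had 2223, 356 and 922 counts in ICAM1-high cells, against 0, 0 and 9 counts in ICAM1-low cells, each summed over 2 libraries. Marker lists of other cell types stand beside 30.4% called higher and 29.4% called lower over all genes tested. Of 10 fibroblast markers 7 were tested, of which 5 were called higher in ICAM1-high and 0 lower. The summed level of the list was 78.0 to 88.9 CPM in ICAM1-high cells, against 47.4 to 50.3 CPM in ICAM1-low cells. LUM, FAP and PDGFRB were abundant enough to be tested through ICAM1-high alone. They had 99, 42 and 26 counts there, against 8, 1 and 5 in ICAM1-low. COL1A1 and FBLN1, also called higher, had 1056 and 1806 counts in ICAM1-high, against 126 and 1330 in ICAM1-low. PDGFRA and THY1 were tested and not called. COL1A2, COL3A1 and DCN had 0, 0 and 1 counts in ICAM1-high, and 1, 2 and 2 counts in ICAM1-low. Of 10 endothelial markers 4 were tested and all 4 were called higher, with a summed level of 23.7 to 27.2 CPM in ICAM1-high cells, against 3.85 to 5.05 CPM in ICAM1-low cells. ERG and CDH5 were abundant enough to be tested through ICAM1-high alone, with 89 and 64 counts there, against 0 and 1 in ICAM1-low. The counts of tested markers called higher are thus in part set by which markers could be tested. VWF, KDR and TEK had 5, 5 and 3 counts in ICAM1-high cells, against 0 counts in ICAM1-low cells. Of 10 leukocyte markers 2 were tested, of which CD14 was called higher and ITGAM lower. The list summed to 24.8 to 26.0 CPM in ICAM1-high cells, against 18.5 to 19.4 CPM in ICAM1-low cells. PTPRC, CD3E and MS4A1 had 0 counts in all libraries. Whether cells other than A549 contributed to the differences described here was not tested. In such bulk libraries, more cells of a type and more RNA per cell cannot be told apart.

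ABC genes differed between the subsets in both directions. The abundant conjugate exporters ABCC2 and ABCC3, together with ABCC4 and ABCG2, were lower in ICAM1-high. ABCA1 and ABCC5 were each 2.65-fold higher, and ABCB9 and ABCC6 were also more than 2-fold higher. In total 13 of the 32 tested members (40.6%) were higher in ICAM1-high and 9 (28.1%) lower, and 10 were not called (quasi-likelihood test in edgeR, p-values adjusted over all genes by Benjamini-Hochberg, threshold 0.05). Of all genes tested, 30.4% were called higher and 29.4% lower, and of the 13338 protein-coding genes among them, 33.7% higher and 32% lower. At a fold of at least 2, 5 members were higher and 0 lower, against 10.8% and 4.71% of all genes. The median log2 fold change, ICAM1-high minus ICAM1-low, was 0.12 over the tested members and 0.01 over all genes tested. With libraries scaled by their totals alone, the median over all genes was 0.19, and 17 members were called higher and 6 lower. These shares describe the members that passed the expression filter, not the whole family.

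**Figure D1:**
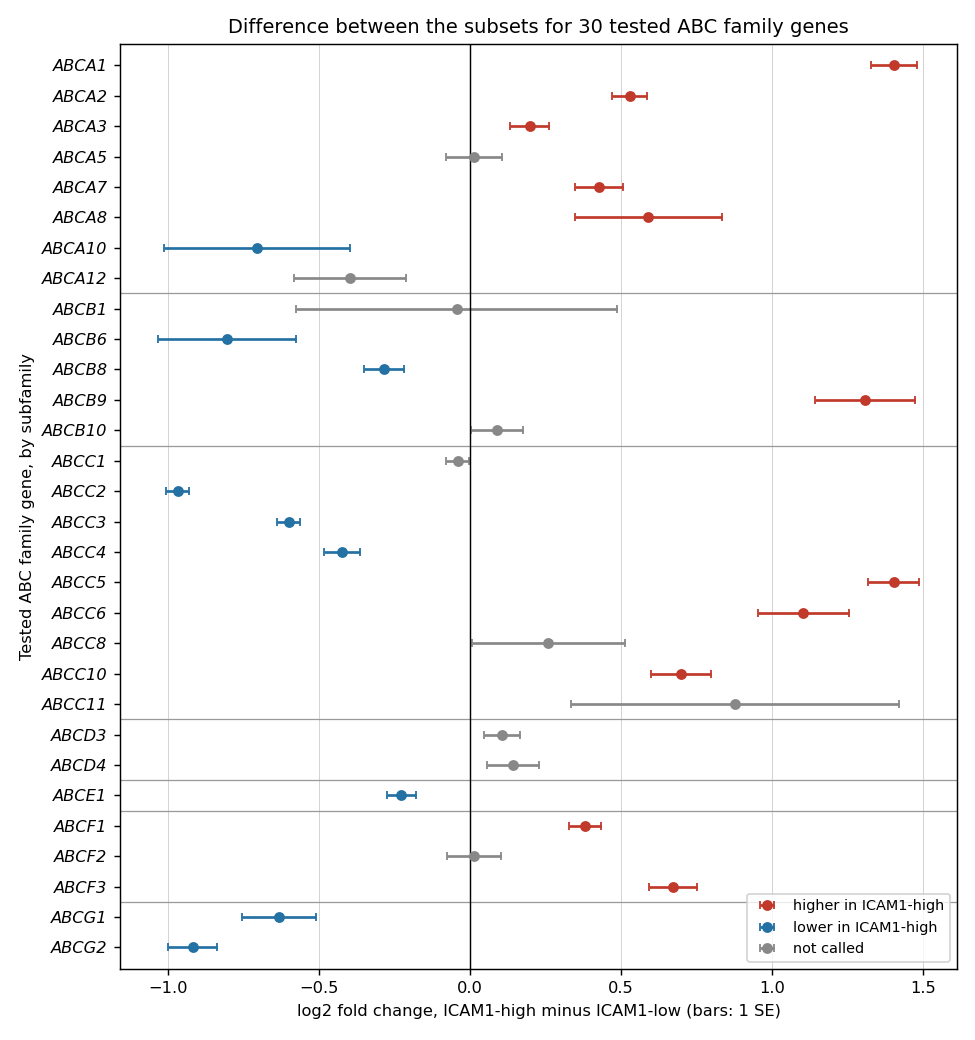
Log2 fold change, ICAM1-high minus ICAM1-low, on the horizontal axis for 30 of the 32 tested ABC family genes, ordered by subfamily, with bars of 1 SE from the edgeR fit of 2 libraries per subset. Red points were called higher and blue points lower at an adjusted p under 0.05. Of the genes drawn, ABCA1 and ABCC5 stand farthest to the right at 1.40, and ABCC2 farthest to the left at -0.97.

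By subfamily, 5 of 8 tested ABCA genes were higher and 1 was lower, where 30.4% and 29.4% of all genes tested were called. In ABCC 3 of 9 were higher and 3 lower, and in ABCF 2 of 3 were higher and 0 lower. The single ABCE gene and both tested ABCG genes were lower. The family as a whole received 0.304% and 0.306% of all counts in ICAM1-high, against 0.330% and 0.329% in ICAM1-low.

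ABCC2 and ABCC3 took a smaller share of the family's counts in ICAM1-high, and ABCC1 a larger one. ABCC1, ABCC2 and ABCC3 together held 58.3% and 57.2% of the family's counts in ICAM1-high, against 69.9% and 70.2% in ICAM1-low. ABCC2 alone accounted for 15.9% and 15.4% in ICAM1-high cells, against 25.1% and 25.3% in ICAM1-low cells. ABCC3 accounted for 23.2% and 23.1% in ICAM1-high cells, against 28.66% and 29.003% in ICAM1-low cells. The share of ABCC1 went the other way, with 19.2% and 18.6% in ICAM1-high cells, against 16.1% and 15.9% in ICAM1-low cells. A share can rise when the other parts of the total fall. The level of ABCC1 itself was not called different (log2 fold change -0.04, edgeR adjusted p = 0.375). The ABCA subfamily held 11.02% and 11.6% in ICAM1-high cells, against 6.58% and 6.68% in ICAM1-low cells. These shares do not depend on the scaling between libraries, and for each of them the 2 subsets did not overlap. Such separation was common with 2 libraries per subset. In CPM, it held for 12731 of the 16250 genes tested and 28 of the 32 tested members.

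**Figure D2:**
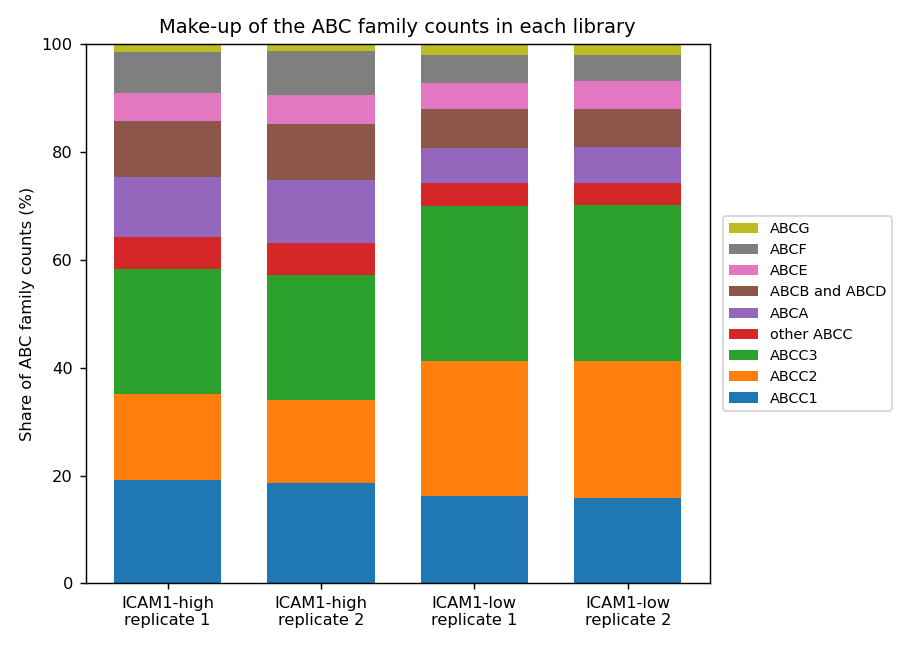
Share of the ABC family's counts (%) taken by ABCC1, ABCC2, ABCC3, the other ABCC genes and the other subfamilies, with ABCB and ABCD drawn together, as stacked bars for each library. The combined bar of ABCC1, ABCC2 and ABCC3 reaches 58.3% and 57.2% in ICAM1-high, against 69.9% and 70.2% in ICAM1-low.

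Among the drug and conjugate exporters, 2 of 9 tested genes (22.2%) were higher in ICAM1-high and 4 (44.4%) were lower. Of all genes tested, 30.4% were higher and 29.4% lower. The median log2 fold change of these exporters was -0.04. ABCC2 (ENSG00000023839, chromosome 10, 99782640 to 99852594, GRCh38), which exports glutathione and glucuronide conjugates at the apical membrane, had 8525 and 8163 counts in ICAM1-high cells, against 13812 and 13528 counts in ICAM1-low cells. It was at 457 and 445 CPM in ICAM1-high cells, against 883 and 882 CPM in ICAM1-low cells, a log2 fold change of -0.97 (SE 0.04, edgeR adjusted p = 1.96e-33). Both ICAM1-high libraries lay well below both ICAM1-low libraries, though the subsets were apart in 12731 of the 16250 genes tested. ABCC3 (ENSG00000108846, chromosome 17, 50634777 to 50692252), the exporter of glucuronides at the basolateral membrane, was at 667 and 665 CPM in ICAM1-high cells, against 1008 and 1011 CPM in ICAM1-low cells. The log2 fold change was -0.60 (SE 0.04, edgeR adjusted p = 8.23e-23), again with no overlap between the subsets.

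ABCC1 (ENSG00000103222, chromosome 16, 15949577 to 16143074), the exporter of glutathione conjugates and leukotriene C4, was at 552 and 536 CPM in ICAM1-high cells, against 567 and 553 CPM in ICAM1-low cells. The log2 fold change was -0.04 (SE 0.04, edgeR adjusted p = 0.375), and 0.13 with adjusted p = 0.00168 when libraries were scaled by their totals alone. The ranges of the subsets nearly touched. Count ratios to ABCC1 within a library need no scaling between libraries. The count ratio of ABCC2 to ABCC1 was 0.828 and 0.829 in ICAM1-high, against 1.56 and 1.60 in ICAM1-low. The ratio of ABCC3 to ABCC1 was 1.21 and 1.24 in ICAM1-high, against 1.78 and 1.83 in ICAM1-low. The order of ABCC1 and ABCC2 counts was thus reversed between the subsets.

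ABCG2 (ENSG00000118777, chromosome 4, 88090264 to 88231322), the breast cancer resistance protein that exports urate and many drugs, was at 31.1 and 25.7 CPM in ICAM1-high cells, against 56.5 and 51.1 CPM in ICAM1-low cells. The log2 fold change was -0.92 (SE 0.08, edgeR adjusted p = 2.14e-15). Every ICAM1-high value lay below every ICAM1-low value, while most genes tested had subsets apart in either direction. ABCC4, which exports cyclic nucleotides and prostaglandins, was at 74.4 and 74.3 CPM in ICAM1-high cells, against 105 and 95.1 CPM in ICAM1-low cells. It fell by 0.42 on the log2 scale (SE 0.06, edgeR adjusted p = 3.78e-09).

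Exporters of the same subfamily moved the other way. ABCC5 (ENSG00000114770, chromosome 3, 183919934 to 184018015), an exporter of cyclic nucleotides and nucleotide analogues, was at 53.2 and 50.4 CPM in ICAM1-high cells, against 19.8 and 19.4 CPM in ICAM1-low cells. The log2 fold change was 1.40 (SE 0.08, edgeR adjusted p = 7.19e-24), with the subsets far apart. ABCC10, which is known to export taxanes, was at 27.8 and 28.7 CPM in ICAM1-high cells, against 16.4 and 18.5 CPM in ICAM1-low cells, and rose by 0.70 (SE 0.10, edgeR adjusted p = 6.33e-09). DLK2, which overlaps it on the opposite strand, had 35 to 51 counts per library. In counts, ABCC5 stood to ABCC1 as 0.0964 and 0.0939 in ICAM1-high cells, and as 0.0348 and 0.0350 in ICAM1-low cells. ABCB1, the P-glycoprotein of classical multidrug resistance, was near the lower limit of what these libraries can show. It had 10 and 12 counts in ICAM1-high cells, against 10 and 9 counts in ICAM1-low cells, with a log2 fold change of -0.04 and an SE of 0.53 (edgeR adjusted p = 0.951). ABCC11 had 15 and 16 counts in ICAM1-high cells, against 3 and 11 counts in ICAM1-low cells and did not pass the test (edgeR adjusted p = 0.161). It overlaps LONP2 on the opposite strand, which had 1071 to 1752 counts per library. ABCC12 was too scarce to test, with at most 11 counts in a library.

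**Figure D3:**
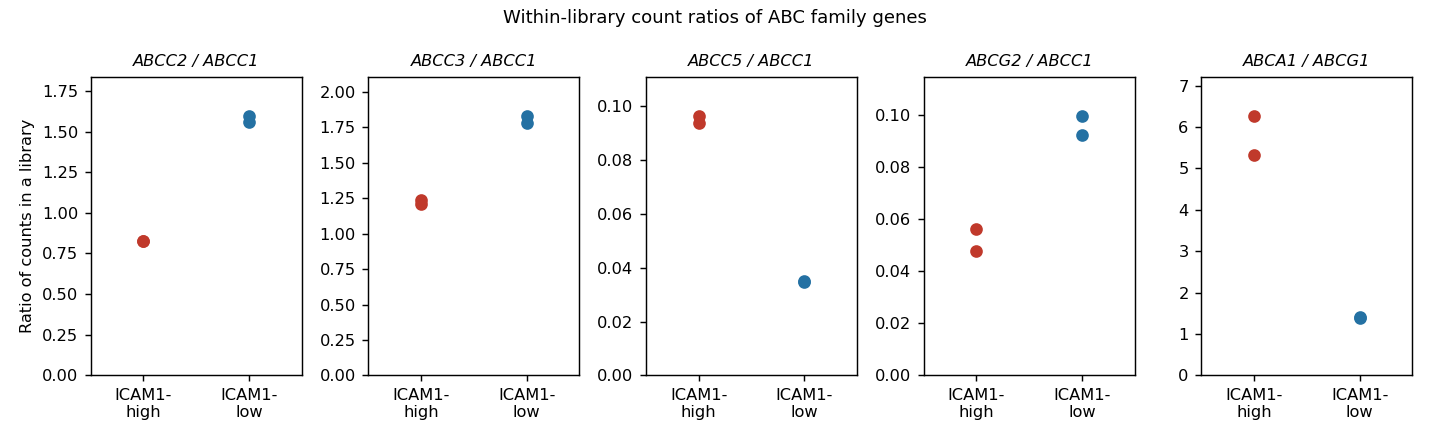
Ratio of the counts of 2 ABC genes within each library, 1 panel per pair, with a linear vertical axis from 0 and 1 point per library (ICAM1-high red, ICAM1-low blue, 2 each). ABCC2 over ABCC1 is 0.828 and 0.829 in ICAM1-high cells, against 1.56 and 1.60 in ICAM1-low cells, and ABCA1 over ABCG1 is 6.26 and 5.33 against 1.42 and 1.39.

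The sequences before the start of the gene are shown for 3 conjugate and nucleotide exporters and a sterol pump, so that those of genes that fell and rose can be compared. RefSeq promoters (GRCh38.p14) were found for 35 of the 45 members, 25 of them tested. Shown are the 250 bases before the listed start, 5′ to 3′ on the gene's strand. They belong to the 2 most changed members in each direction that had 1 listed start and a mean of at least 10 CPM. Capitals mark matches on either strand to any of 5 motifs. The GC box, known as a binding site of SP1 and its relatives, was searched as GGGCGG. The palindromic E-box, bound by basic helix-loop-helix factors, was searched as CACGTG. The TATA box of core promoters was searched as TATAAA, and the box bound by NF-Y by its letters CCAAT. The antioxidant response element, bound by NRF2, was searched as TGACNNNGC.
ABCC2: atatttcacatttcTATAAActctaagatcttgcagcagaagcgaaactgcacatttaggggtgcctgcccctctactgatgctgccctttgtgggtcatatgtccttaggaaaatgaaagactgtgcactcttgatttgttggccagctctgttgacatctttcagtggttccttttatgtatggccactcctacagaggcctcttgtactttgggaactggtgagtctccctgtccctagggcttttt
ABCC4: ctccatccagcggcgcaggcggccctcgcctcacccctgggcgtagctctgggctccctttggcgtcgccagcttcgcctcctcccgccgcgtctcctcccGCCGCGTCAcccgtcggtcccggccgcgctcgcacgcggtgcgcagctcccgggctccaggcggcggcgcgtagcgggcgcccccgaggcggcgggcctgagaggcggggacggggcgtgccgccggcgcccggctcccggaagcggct
ABCA1: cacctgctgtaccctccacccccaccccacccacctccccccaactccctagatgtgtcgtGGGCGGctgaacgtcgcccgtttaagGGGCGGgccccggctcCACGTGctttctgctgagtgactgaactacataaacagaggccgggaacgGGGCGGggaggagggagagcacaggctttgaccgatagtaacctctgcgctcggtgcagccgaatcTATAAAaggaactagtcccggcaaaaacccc
ABCC5: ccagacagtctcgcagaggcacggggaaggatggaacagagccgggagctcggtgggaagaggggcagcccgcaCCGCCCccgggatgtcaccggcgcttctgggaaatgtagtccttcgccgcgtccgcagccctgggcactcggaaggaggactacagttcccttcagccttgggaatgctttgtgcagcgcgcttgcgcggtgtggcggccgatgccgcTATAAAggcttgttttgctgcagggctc
The stretches lie on chromosome 10, 99782390 to 99782639 (plus strand) for ABCC2 and on chromosome 13, 95301452 to 95301701 (minus strand) for ABCC4. Those of ABCA1 and ABCC5 lie on chromosome 9, 104928156 to 104928405, and on chromosome 3, 184017885 to 184018134, both on the minus strand.

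The 2 exporters that fell differ in base composition, with 1 CpG in the window of ABCC2 and 42 in that of ABCC4, against a median of 11 over 27305 promoters. ABCC2 holds a TATA box whose first base lies 236 bases before the start, and ABCC4 an antioxidant response element on the opposite strand at 149. In ABCA1 and ABCC5, which rose, a TATA box begins 31 and 28 bases before the start. ABCA1 also has GC boxes at 189, 163 and 97 and an E-box at 147, and ABCC5 a GC box at 176. The 25 tested members with a promoter had a median CpG count of 20, against 11 over all promoters. A GC box occurred in 15 of these 25, and in 42.3% of all promoters. It was found in 8 of 10 that were higher and 2 of 7 that were lower. These 10 and 7 are the members with a promoter among the 13 higher and 9 lower. Whether the motif and the direction are linked was not tested. The antioxidant response element occurred in 3 of those 10 and 2 of those 7, against 11% of all promoters. The E-box, TATA box and CCAAT box occurred in 3, 4 and 4 of the 25 tested members, and in 6.49%, 11.1% and 33% of all promoters. Where several starts were listed, the first was used, and a match is only a run of letters. All promoters include those of genes not tested here, so they are not a like background for tested members.

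Of the lipid and sterol transporters, 9 of 18 were tested, of which 5 were higher in ICAM1-high and 2 lower. Of all genes tested, 30.4% were higher and 29.4% lower. The median log2 fold change of the 9 was 0.20. ABCA1 (ENSG00000165029, chromosome 9, 104781002 to 104928237), which loads cholesterol and phospholipid onto apolipoprotein A-I, was at 64.9 and 62.7 CPM in ICAM1-high cells, against 23.8 and 24.4 CPM in ICAM1-low cells. It rose by 1.40 on the log2 scale (SE 0.08, edgeR adjusted p = 7.16e-26). ABCG1, which passes cholesterol on to mature high-density lipoprotein and is known as a joint target of the liver X receptors with ABCA1, was at 10.4 and 11.8 CPM in ICAM1-high cells, against 16.8 and 17.5 CPM in ICAM1-low cells. It fell by 0.63 (SE 0.12, edgeR adjusted p = 7.40e-06). The sterol pumps thus differed in opposite directions, and the count ratio of ABCA1 to ABCG1 was 6.26 and 5.33 in ICAM1-high cells, against 1.42 and 1.39 in ICAM1-low cells.

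ABCA2, a lysosomal lipid transporter abundant in brain, was at 105 and 114 CPM in ICAM1-high cells, against 76.0 and 75.8 CPM in ICAM1-low cells, and rose by 0.53 (SE 0.06, edgeR adjusted p = 1.85e-12). ABCA7, a phospholipid transporter linked to Alzheimer disease risk, was at 43.3 and 51.9 CPM in ICAM1-high cells, against 34.9 and 35.9 CPM in ICAM1-low cells. It rose by 0.43 (SE 0.08, edgeR adjusted p = 4.85e-06). ABCA3, which fills the lamellar bodies of alveolar type II cells with surfactant phospholipid, was at 65.2 and 67.9 CPM in ICAM1-high cells, against 60.1 and 56.0 CPM in ICAM1-low cells. Its rise of 0.20 (SE 0.07, edgeR adjusted p = 0.00707) was no longer called without ICAM1-low replicate 2 (adjusted p = 0.213).

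The ABCA genes of chromosome 17 lie side by side and did not move as a block. ABCA8 was at 4.40 and 3.98 CPM in ICAM1-high cells, against 2.37 and 3.19 CPM in ICAM1-low cells (log2 fold change 0.59, SE 0.24, edgeR adjusted p = 0.0309). ABCA10 was at 1.66 and 1.42 CPM in ICAM1-high cells, against 2.49 and 2.54 CPM in ICAM1-low cells (log2 fold change -0.71, SE 0.31, edgeR adjusted p = 0.0427). The ABCA10 call was lost whichever library was left out (adjusted p = 0.0718 to 0.190), and the ABCA8 call without ICAM1-high replicate 1 (0.153) or ICAM1-low replicate 1 (0.268). ABCA5, a lysosomal member whose annotated end overlaps ABCA10 on the same strand, was at 25.7 and 26.3 CPM in ICAM1-high cells, against 25.0 and 26.5 CPM in ICAM1-low cells (edgeR adjusted p = 0.916). ABCA6 and ABCA9 of the same cluster had at most 6 counts in a library and were not tested. ABCA12, the ceramide transporter of skin, was at 5.74 and 4.79 CPM in ICAM1-high cells, against 6.08 and 7.82 CPM in ICAM1-low cells. The log2 fold change of -0.40 did not pass the test (SE 0.19, edgeR adjusted p = 0.0592).

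The other lipid transporters were scarce. ABCA4 of the retina, the bile transporters ABCB4 and ABCB11, ABCG4 and the sterol pair ABCG5 and ABCG8 were not tested. ABCG4 had 17 and 8 counts in ICAM1-high cells, against 3 and 1 counts in ICAM1-low cells, and ABCA4 had 8 and 13 in ICAM1-high cells, against 5 and 9 in ICAM1-low cells. ABCB4, ABCB11, ABCG5 and ABCG8 had at most 8 counts in a library. ABCA13 had 0 counts in all 4 libraries, which allows a level of up to 0.161 to 0.196 CPM per library by the count of 3 that 0 allows. Such limits cover counting error only.

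Among the transporters of peroxisomes and of lysosomal cobalamin, ABCD3 and ABCD4 were tested and not called. ABCD3, which imports branched-chain acids and bile acid precursors into peroxisomes, was at 84.4 and 80.3 CPM in ICAM1-high cells, against 74.0 and 79.2 CPM in ICAM1-low cells (log2 fold change 0.10, SE 0.06, edgeR adjusted p = 0.129). ABCD4, which serves the release of cobalamin from lysosomes, had a log2 fold change of 0.14 (SE 0.09, edgeR adjusted p = 0.156). ABCD2, which imports very-long-chain fatty acids into peroxisomes, had at most 2 counts in a library and was not tested.

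Of the mitochondrial ABCB transporters described here, ABCB6 and ABCB8 were lower and ABCB10 was not called. ABCB8 was at 54.2 and 59.7 CPM in ICAM1-high cells, against 71.8 and 67.0 CPM in ICAM1-low cells, and fell by 0.29 (SE 0.07, edgeR adjusted p = 0.000136). That fall was not called when libraries were scaled by their totals alone (-0.11, adjusted p = 0.133). ABCB10, which supports haem synthesis, had a log2 fold change of 0.09 (SE 0.09, edgeR adjusted p = 0.392). ABCB6, a porphyrin transporter, was at 3.70 and 2.61 CPM in ICAM1-high cells, against 4.22 and 6.85 CPM in ICAM1-low cells, with a log2 fold change of -0.80 (SE 0.23, edgeR adjusted p = 0.00193). Without ICAM1-low replicate 2 it was -0.43 and not called (adjusted p = 0.205). ABCB9, a transporter of peptides into lysosomes, had 205 and 221 counts in ICAM1-high cells, against 80 and 64 counts in ICAM1-low cells. It rose by 1.31 (SE 0.17, edgeR adjusted p = 2.28e-10), with its annotated region overlapping OGFOD2 and ARL6IP4 on the opposite strand.

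The peptide transporter genes TAP1 and TAP2, which are ABCB genes by descent, also rose. TAP1 was at 67.0 and 63.7 CPM in ICAM1-high cells, against 40.6 and 40.8 CPM in ICAM1-low cells, a log2 fold change of 0.68 (SE 0.07, edgeR adjusted p = 1.36e-13). TAP2 was at 33.6 and 28.5 CPM in ICAM1-high cells, against 16.6 and 16.8 CPM in ICAM1-low cells (0.89, SE 0.10). CFTR, the chloride channel of the ABCC subfamily, was at 0.966 and 1.09 CPM in ICAM1-high cells, against 1.60 and 1.76 CPM in ICAM1-low cells and did not pass the test (edgeR adjusted p = 0.0985). The melanocyte transporter gene ABCB5 had at most 9 counts in a library.

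Among ABCC genes that are not drug pumps, ABCC6, which drives ATP release from hepatocytes and is mutated in pseudoxanthoma elasticum, was at 12.7 and 13.6 CPM in ICAM1-high cells, against 5.18 and 7.04 CPM in ICAM1-low cells. It rose by 1.10 (SE 0.15, edgeR adjusted p = 2.71e-09). Its near-identical copies ABCC6P1 and ABCC6P2 had 5 to 14 counts per library, so its counts are uncertain to the extent that reads were split. ABCC6 lies next to ABCC1 on chromosome 16, and their count ratio was 0.0229 and 0.0254 in ICAM1-high cells, against 0.00913 and 0.0127 in ICAM1-low cells. ABCC8, the sulfonylurea receptor of beta-cell potassium channels, was at 3.33 and 3.32 CPM in ICAM1-high cells, against 2.75 and 2.80 CPM in ICAM1-low cells (edgeR adjusted p = 0.390). Its muscle counterpart ABCC9 had at most 14 counts in a library and was not tested.

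Of the 4 soluble members, ABCF1 and ABCF3 were higher in ICAM1-high, ABCE1 was lower and ABCF2 was not called. ABCE1, which splits ribosomes after termination, was at 150 and 153 CPM in ICAM1-high cells, against 176 and 179 CPM in ICAM1-low cells, and fell by 0.23 (SE 0.05, edgeR adjusted p = 3.73e-05). It was not called with scaling by library totals (-0.05, adjusted p = 0.331). It overlaps OTUD4 on the opposite strand, which had 1458 to 1690 counts per library. ABCF1, which aids translation initiation, was at 146 and 150 CPM in ICAM1-high cells, against 119 and 108 CPM in ICAM1-low cells, and rose by 0.38 (SE 0.05, edgeR adjusted p = 3.53e-09). ABCF3, related to a yeast partner of the kinase GCN2, was at 46.7 and 55.7 CPM in ICAM1-high cells, against 32.2 and 32.0 CPM in ICAM1-low cells, and rose by 0.67 (SE 0.08, edgeR adjusted p = 5.92e-11). ABCF2 had a log2 fold change of 0.01 (SE 0.09, edgeR adjusted p = 0.920).

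**Figure D4:**
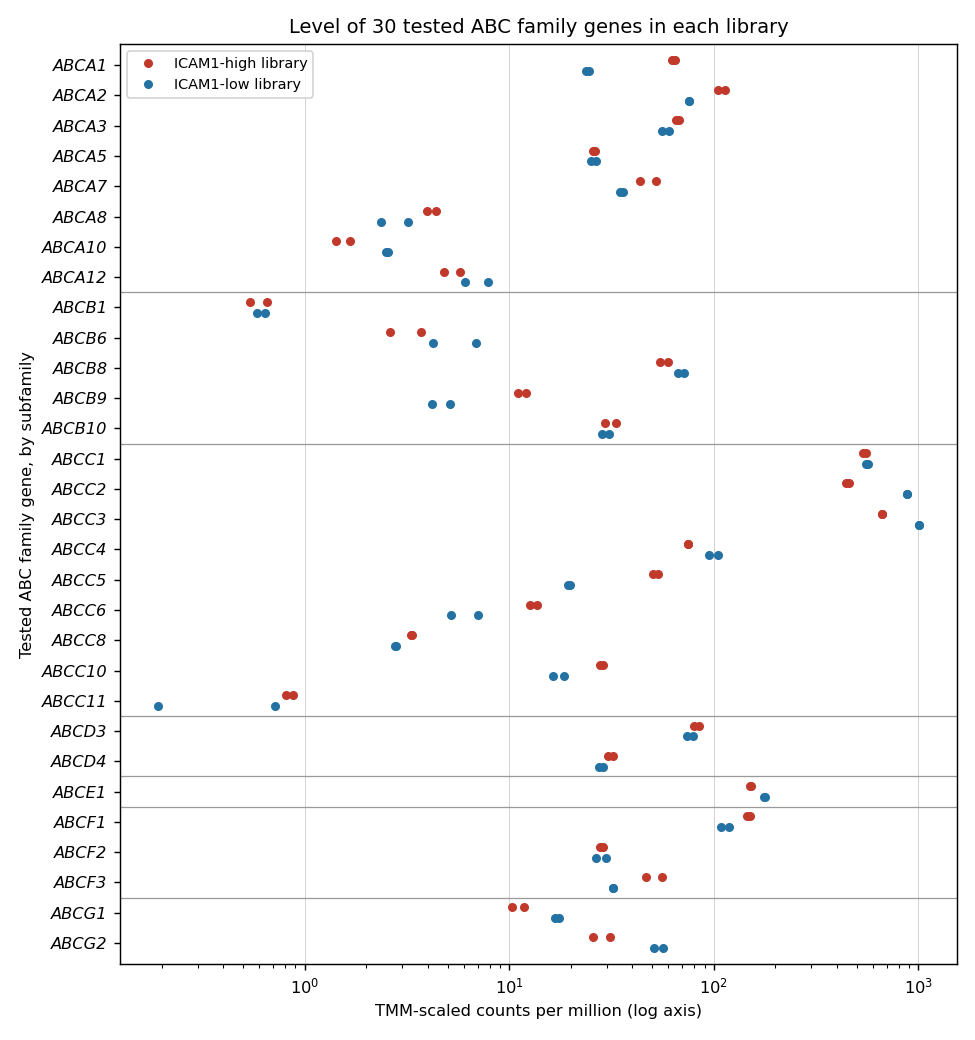
TMM-scaled CPM on a log axis for 30 of the 32 tested ABC family genes, with 1 point per library (ICAM1-high red and drawn above, ICAM1-low blue, 2 each) and lines between subfamilies. ABCC1, ABCC2 and ABCC3 lie at 445 CPM and above in all libraries, and ABCB1 lies below 1 CPM in all of them.

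Levels of different members were compared per kilobase of annotated exon, taken over all annotated transcripts of a gene. Which transcripts were present was not tested, so close ranks can depend on that length. In ICAM1-high, ABCC1 led with 71.8 ± 1.48 CPM per kilobase, followed by ABCC3 with 69.2 ± 0.139 and ABCC2 with 57.5 ± 1.16 (SD, n = 2). The lengths used were 7575 bases for ABCC1 and 9614 for ABCC3, and by counts ABCC3 stood above ABCC1 in all libraries. In ICAM1-low, ABCC2 led with 113 ± 0.124 CPM per kilobase, followed by ABCC3 with 105 ± 0.254 and ABCC1 with 73.9 ± 1.33 (SD, n = 2). In neither subset did the libraries of neighbouring ranks overlap among these 3. Next came ABCF1 with 32.7 ± 0.756 and ABCE1 with 24.2 ± 0.295 CPM per kilobase in ICAM1-high, while in ICAM1-low ABCE1 with 28.3 ± 0.355 stood above ABCF1 with 25.1 ± 1.71. ABCG2 ranked 17 of 32 in ICAM1-high cells, against 7 of 32 in ICAM1-low cells, and overlapped the next lower gene in both subsets.

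Genes that work with the family's members were read from lists, whose counts stand beside 30.4% called higher and 29.4% called lower over all genes tested. Of 10 xenobiotic receptor and sensor genes 9 were tested, of which 2 were higher in ICAM1-high and 4 lower, with a median log2 fold change of 0.02 against 0.01 over all genes. NFE2L2, which encodes NRF2, an activator known to drive several ABCC genes and ABCG2, was at 85.0 and 81.0 CPM in ICAM1-high cells, against 177 and 178 CPM in ICAM1-low cells (log2 fold change -1.10, SE 0.05, edgeR adjusted p = 4.01e-29). The aryl hydrocarbon receptor gene AHR fell by 1.07 (SE 0.06) and PPARG by 0.83 (SE 0.07), whereas PPARD rose by 0.77 (SE 0.10). Whether these differences had a part in those of the exporters was not tested. Of 11 tested liver X receptor genes and targets outside the family, 2 were higher and 3 lower (median -0.01). MYLIP rose by 0.97 (SE 0.12) and LPCAT3 by 0.52 (SE 0.10), while PLTP fell by 1.04 (SE 0.32).

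Among sterol carriers and acceptors, 4 of 10 tested genes were higher and 3 lower (median 0.01). The late endosomal cholesterol exporter gene NPC1 fell by 0.93 (SE 0.05) and CLU by 0.79 (SE 0.04), while SOAT1, which esterifies cholesterol, rose by 0.57 (SE 0.06) and SCARB1 by 0.49 (SE 0.05). Drug uptake carriers were higher in 9 of 18 cases and lower in 5 (median 0.59), where 30.4% and 29.4% of all genes were called. Some of those higher were abundant enough to be tested through ICAM1-high alone. SLCO4A1 rose by 1.32 (SE 0.09), SLCO3A1 by 1.23 (SE 0.08) and the nucleoside carrier gene SLC29A2 by 1.22 (SE 0.11), while SLC22A3 fell by 0.67 (SE 0.06). Of 19 conjugation enzymes, whose products ABCC proteins export, 6 were higher and 5 lower (median 0.09). GSTP1 fell by 0.63 (SE 0.05) and MGST1 by 0.52 (SE 0.04), while GSTM3 rose by 2.97 (SE 0.17). GSTM1 had 77 counts in ICAM1-high cells, against 2 in ICAM1-low cells. GSTM genes are alike in sequence, so reads may be shared among them. The copper exporter genes ATP7A and ATP7B rose by 0.25 (SE 0.07) and 0.71 (SE 0.14).

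Only 4 of 11 surfactant and lamellar body genes, the setting in which ABCA3 works, were tested, and their median was 0.78. LPCAT1 rose by 1.42 (SE 0.06), and CTSH and NAPSA did not pass the test. LAMP3 was abundant enough to be tested through ICAM1-high alone (log2 fold change 4.43, SE 0.37). It had 211 counts there, against 8 in ICAM1-low. SFTPA1 had 0 counts in all libraries, and SFTPA2, SFTPB, SFTPC, SFTPD, NKX2-1 and SLC34A2 had at most 5 counts in a library. In haem synthesis, the setting of ABCB6 and ABCB10, 5 of 12 genes were higher and 5 lower (median 0.01). UROD rose by 0.90 (SE 0.09), CPOX by 0.83 (SE 0.09) and ALAS1 by 0.60 (SE 0.06), while HMOX1, which degrades haem, fell by 0.64 (SE 0.05). Of 15 iron-sulfur cluster genes 3 were higher and 5 lower (median -0.09). NUBP2 rose by 0.53 (SE 0.07). HSPA9, the mitochondrial chaperone, fell by 0.90 (SE 0.04), NFU1 by 0.45 (SE 0.09) and CIAPIN1 by 0.32 (SE 0.06).

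Peroxisome import and beta-oxidation genes, the setting of ABCD3, were higher in 6 of 14 cases and lower in 2 (median 0.15). HSD17B4 rose by 0.40 (SE 0.06), PEX14 by 0.50 (SE 0.10) and PEX5 by 0.31 (SE 0.07), and CRAT fell by 0.48 (SE 0.07). Ribosome recycling and rescue genes, the setting of ABCE1, were higher in 2 of 11 cases and lower in 5 (median -0.14), beside the same 30.4% and 29.4% of all genes. The release factor gene ETF1 fell by 0.60 (SE 0.04), DENR by 0.44 (SE 0.05) and EIF3J by 0.30 (SE 0.05), and the GCN2 kinase gene EIF2AK4 rose by 0.58 (SE 0.07).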

How the data were processed

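Whole-number counts of reads per gene were deposited by the authors in 1 table, whose columns carry the sample descriptions. Trizol extraction and a SMARTer mRNA library kit were used, per the labels' protocols. FastQC 0.10.1 and GRCh38 are named in the submitters' processing notes. Which programs aligned and counted the reads, and with what strand setting, is not given in the sources used here. Overlapping or near-identical genes are therefore uncertain.

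All 58735 identifiers were in GENCODE 29, which gave positions, types and exon lengths, and 58207 had a symbol. Counts were tested with edgeR 4.0.16 in R 4.3.3 (quasi-likelihood, robust, TMM, default filter with a minimum count of 10 and total of 15), and p-values were adjusted over all 16250 genes. SE is the log2 fold change over the root of the F statistic. TMM factors were 1.059 and 1.065 in ICAM1-high and 0.939 and 0.944 in ICAM1-low. Coefficient of variation between libraries was 3.64%. On simulated counts for the same comparison with 16250 genes, 38%, 82%, 78% and 100% of 50 genes were recovered at 1.25, 1.5, 2 and 4-fold, with 11 false calls.

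The members and lists were chosen with earlier results of these data known. Named were the members, ICAM1, and up to 4 tested genes per partner list with the smallest adjusted p. Of the genes this rule names, 2 members and 1 partner-list gene are not reported here, though counts over the family and lists include them. DESeq2 1.42.0 and limma-voom 3.58.1 served as alternatives.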

Additional observations from a re-analysis of the deposited data

How the results depend on the processing

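Of the 22 called members, 16 kept their call and direction under all 12 refits, among them ABCA1, ABCA2, ABCA7, ABCB9, ABCC2, ABCC3, ABCC4, ABCC5, ABCC6, ABCC10, ABCF1, ABCF3, ABCG1 and ABCG2. Members called higher ranged from 11 (DESeq2) to 17 (library size only), and lower ones from 6 (library size only) to 9. Scaling by library size alone, which moved the median of all genes to 0.19, turned ABCC1 to 0.13 and ABCB1 to 0.13, gave 6735 higher and 3124 lower genes, and called ABCB10, ABCD3 and ABCD4 higher (0.26, 0.28 and 0.32). ABCA10, ABCB8 and ABCE1 were then not called (-0.53, -0.11 and -0.05). With no filter, ABCA5 turned to -0.0084 and ABCF2 to -0.00932, and ABCA8 and ABCA10 lost their calls (adjusted p = 0.0578 and 0.0588). With DESeq2, ABCA3, ABCA8 and ABCA10 lost theirs (0.0636, 0.172 and 0.199). Requiring 1.5-fold left 2840 higher and 1963 lower genes, 9 and 6 members, and 23 and 14 partner-list genes. Without single libraries, 12 to 16 members were called higher and 7 to 9 lower, 38 to 41 and 34 to 37 partner-list genes, and 4235 to 4535 and 4115 to 4621 of all genes. The lone library of a subset was there assumed to vary like those of the other. These refits tested 16865 to 17166 genes, against 16250 in the main fit, so their calls can include members untested in the main fit. Uncalled members then ranged from -0.0383 to 0.0461 (ABCA5), -0.0706 to 0.0788 (ABCF2), -0.194 to 0.0834 (ABCB1) and -0.00335 to 0.166 (ABCB10). ABCD3 was called without ICAM1-high replicate 2 (adjusted p = 0.0487), and ABCA12 fell without ICAM1-high replicate 1 (0.0360) or ICAM1-low replicate 1 (0.0171). With replicate number as a replicate block, 13 members were called higher and 9 lower, and no member's call changed; deviations of same-numbered libraries correlated at 0.04 over 16250 genes, so numbers are not taken as pairs. Where a call changed, the cause was not tested. At under 1 CPM (ABCB1, ABCC11), SEs of 0.53 and 0.54 limit what can be told.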
